A study of Mus musculus with 6 samples.

Results

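Mitosis and kinetochore genes are the transcripts that a cell makes on its way into and through division. A set of 48 of them, chosen by name, was followed here in cultured cells of the mouse aorta, labelled as smooth muscle. The cells were kept with or without a gamma-secretase inhibitor. The 48 symbols were looked up in a table of 37309 genes, each matched exactly 1 row, and all 48 passed the filter on low values that left 14906 genes to be tested. No measured value was used to pick their rows, but the list was drawn up with earlier results of these data known.

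The cells had been taken from the smooth muscle of the descending aorta. The donor strain was the Immorto mouse, which carries a heat-sensitive large T antigen under an interferon-inducible promoter that keeps its cells growing in culture. The control group was kept with DMSO, the solvent, and the other with 50 uM DAPT, an inhibitor of gamma-secretase, the protease that frees the active intracellular part of Notch receptors, each for 3 days. Sequencing libraries were made from total RNA with the TruSeq kit, 3 per group, and their totals ran from 10702548 to 14503665 reads. Values are normalised counts, reads divided by a size factor of the library, and ± gives the SD over the 3 libraries of a group. The labels do not say whether the 3 libraries of a group came from separate cultures or animals, so p-values measure only the spread between these libraries, which may be technical. The cultures carry the large T antigen in both groups, and the labels give neither the growth temperature that controls it nor the number of isolates. Large T antigen binds the RB proteins and p53, which otherwise restrain cell cycle genes.

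The label of the cells was set against marker genes. Among 8 smooth muscle markers Acta2 was at 520.3 ± 50.8 in vehicle and 252 ± 26.3 under DAPT and Tagln at 925 ± 60.6 in vehicle and 495 ± 36.1 under DAPT, while Myh11 was low at 49.2 ± 4.28 in vehicle and 47.1 ± 3.99 under DAPT and Myocd lay below the filter at 0.400 ± 0.693 in vehicle and 0.330 ± 0.572 under DAPT. The summed level of the 8 markers was between 2538 and 2733 normalised counts in vehicle and between 1826 and 2021 under DAPT, without overlap. Of the 7 that were tested, Acta2 and Tagln were called lower. The sum of 8 mesothelial markers was likewise lower under DAPT, at 1921 to 2064 against 3475 to 3553. Of the 6 that were tested, 5 were called lower. Sums of 8 adventitial fibroblast markers overlapped, at 23429 to 25636 in vehicle and 23415 to 24642 under DAPT. Of these 8, all tested, 6 were called lower and 1 higher. Over all tested genes, 8.91% were called lower and 9.22% higher. In both groups the fibroblast sum was above those of the smooth muscle and mesothelial markers. The smooth muscle label comes from the submitters and is not established by these sums. Endothelial markers summed to 583 to 640.2 and 596 to 618, with 5 of 8 at a mean under 10. Of the macrophage and leukocyte markers, Emr1 and Cd3e were at 0 in all 6 libraries, and the sum was 347 to 400.0 in vehicle and 419.8 to 435 under DAPT, without overlap. Cd68, a macrophage marker of that list, was called higher (log2 change 0.29, limma adjusted p = 0.0148), a call lost without vehicle replicate 1 or DAPT replicate 2. The part of these shifts in the changes of mitotic genes was not tested. In bulk RNA, a change in the number of dividing cells and a change in mitotic RNA per dividing cell cannot be told apart.

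A dividing cell builds up cyclin A and cyclin B, which switch on the kinase Cdk1 and start mitosis. Condensin folds the chromosomes, kinetochores assembled on centromeric chromatin attach them to the spindle, and the spindle checkpoint holds the cell until every chromosome is attached. Cdc20 then lets the anaphase-promoting complex mark cyclin B and securin for destruction, the chromatids part, and a contractile ring divides the cell. Transcription of most of these genes peaks late in the cycle and falls back after division, and their RNA is widely used as a measure of how many cells are cycling. In the normal artery wall smooth muscle cells seldom divide, whereas in culture and in injured vessels they do.

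Mitotic transcripts were abundant and nearly level between the groups. Of the 48 genes, 6 rose under DAPT (Cdc25b, Spc25, Ncapg, Nusap1, Smc4 and Smc2), 2 fell (Ect2 and Anln) and 40 did not pass. The test was limma on log2(normalised count + 1), DAPT minus vehicle, with p-values adjusted by Benjamini-Hochberg over all 14906 genes and a threshold of 0.05. The called genes were 16.7% of the members, against a background of 18.1% of all tested genes called in either direction, 9.22% higher and 8.91% lower, so the share called is near that of the table at large. Every called change was small: the largest was the 1.18-fold rise of Cdc25b, and 0 of the 48 genes were called at 1.25-fold or more in either direction by limma, where 5.96% of all tested genes were. The median log2 change over the 48 genes was 0.040, against 0.000902 over all tested genes, and the median size of the change regardless of sign was 0.051 against 0.10. The change was above 0 for 34 of the 48 genes (70.8%), where it was for 50.3% of all tested genes.

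As over all tested genes, the count of called members varied with the library left out and with the tool. It was 4 higher and 0 lower without DAPT replicate 1, 1 higher and 2 lower without DAPT replicate 2, and 3 higher and 0 lower without DAPT replicate 3. Without vehicle replicate 1 it was 5 higher and 1 lower. Over all tested genes the same settings, in that order, called 1069, 929, 965 and 1253 higher. They called 1079, 939, 991 and 1123 lower, against 1375 higher and 1328 lower with all 6 libraries. EdgeR on the reads of 5 libraries, without DAPT replicate 3, called 3 higher (Cdc25b, Spc25 and Nusap1) and 0 lower. It had 10 and 2 members at an unadjusted p under 0.05, and called 944 genes higher and 995 lower over 14803. DESeq2 called 1 higher (Cdc25b) and 0 lower, with 5 and 1 at an unadjusted p under 0.05, and 445 genes higher and 537 lower over 14803. For limma the unadjusted p was under 0.05 in 13 members, 10 higher and 3 lower, where it was in 30.0% of all tested genes. In the authors' deposited table Cdc25b alone of the 48 genes had an adjusted p under 0.05 (0.00127), where 9.53% of the genes tested here did.

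**Figure D1:**
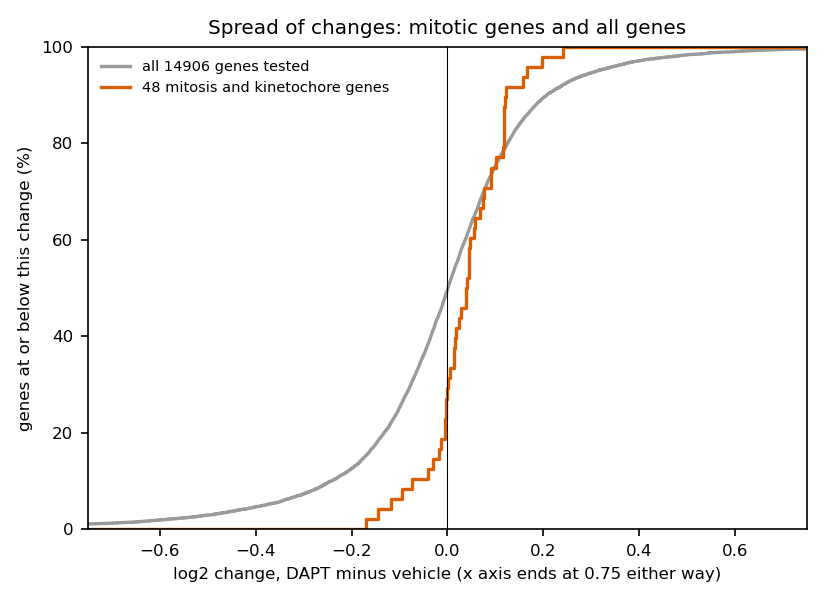
Cumulative share of genes (y axis, %) at or below a given log2 change, DAPT minus vehicle (x axis), for the 48 mitosis and kinetochore genes and for all 14906 genes tested. The 48 genes span -0.17 to 0.24, and their median lies at 0.040.

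The 95% interval of the change lay within 1.25-fold either way for 46 of the 48 genes, against 61.5% of all tested genes. The exceptions were Cdc25b, whose interval started at 1.11-fold and ended just past that band, and Cenpk, the lowest member by level, whose interval ran from 0.893-fold to 1.32-fold. The width of the intervals was set beside the level of the genes: the median half-width was 0.10 on the log2 scale for the members and 0.14 for all tested genes, and the authors' deposited RPKM had a median in vehicle of 13.7 for the members and 7.77 for all tested genes. Reads per library behind a member's value ran from 68 to 5132. Values of the 3 DAPT libraries did not overlap those of the 3 vehicle libraries in 9 members, 7 higher and 2 lower, where 33.3% of all tested genes showed no overlap, 16.8% higher and 16.4% lower.

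**Figure D2:**
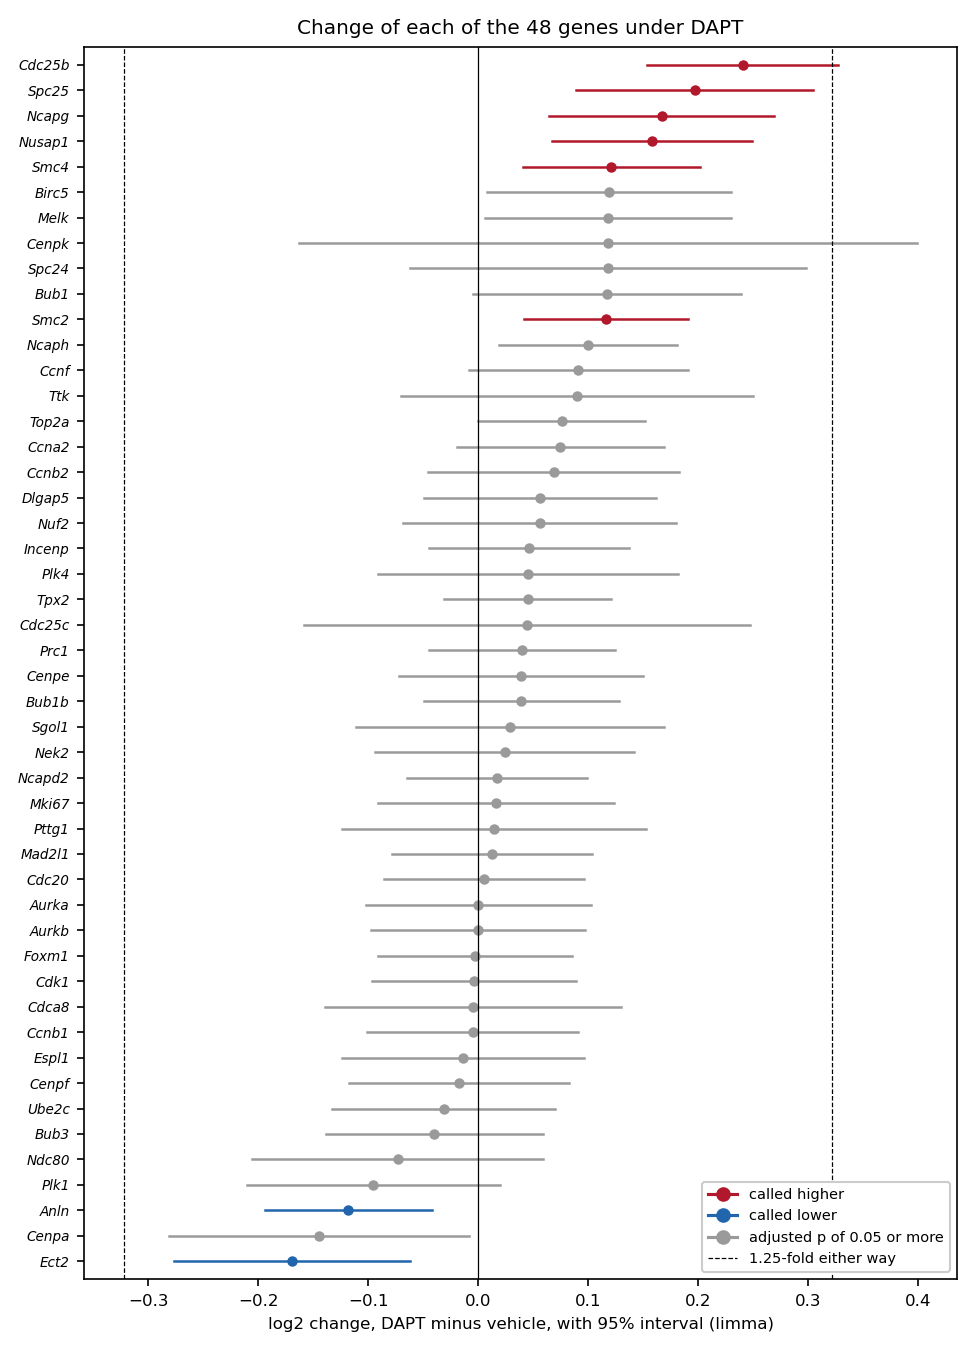
Log2 change (x axis, DAPT minus vehicle) with its 95% interval from limma for each of the 48 genes (y axis, ordered by change). Red and blue mark genes called higher and lower, grey the 40 that did not pass, and the dashed lines mark 1.25-fold either way, which the intervals of Cdc25b and Cenpk cross.

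Late cell cycle promoters are known for CCAAT boxes, bound by NF-Y, and for the cell cycle genes homology region (CHR), the element through which the DREAM and MuvB complexes act. RefSeq promoter windows on build GRCm38.p6, read over the 250 bases before the annotated start, were at hand for 39 of the 48 genes. The letters CCAAT, or ATTGG on the other strand, were in 28 of the 39 (71.8%), against 37.5% of 27025 genes with a window and 40.8% of the 10337 of them that were tested here. The CHR letters TTTGAA, or TTCAAA on the other strand, were in 14 of the 39 (35.9%), against 18.3% and 12.7%, and all 14 also held CCAAT or ATTGG. The E2F letters TTCCCGCC, or GGCGGGAA on the other strand, were in 0 of the 39, against 2.13% and 3.99%. By call, CHR letters were in 2 of the 5 genes called higher that had a window, in 1 of the 2 called lower and in 11 of the 32 that did not pass. Such a match is a description of the letters and not of a factor's binding. The 120 bases just before the start are given for Cdk1, a textbook late cell cycle promoter whose RNA did not pass the test, for the 3 members with the largest rise, and for Ect2, which fell. Capitals mark TTTGAA and CCAAT on either strand, and no base belongs to both motifs.
Cdk1: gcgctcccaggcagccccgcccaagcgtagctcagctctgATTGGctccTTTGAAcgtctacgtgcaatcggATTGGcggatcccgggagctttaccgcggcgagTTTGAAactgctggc
Ncapg: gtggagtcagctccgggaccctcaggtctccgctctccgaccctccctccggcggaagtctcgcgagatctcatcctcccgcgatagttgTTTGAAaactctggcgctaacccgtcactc
Cdc25b: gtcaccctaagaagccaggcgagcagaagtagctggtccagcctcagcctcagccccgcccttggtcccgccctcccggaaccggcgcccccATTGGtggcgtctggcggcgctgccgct
Spc25: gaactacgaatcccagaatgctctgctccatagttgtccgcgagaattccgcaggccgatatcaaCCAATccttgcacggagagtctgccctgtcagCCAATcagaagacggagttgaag
Ect2: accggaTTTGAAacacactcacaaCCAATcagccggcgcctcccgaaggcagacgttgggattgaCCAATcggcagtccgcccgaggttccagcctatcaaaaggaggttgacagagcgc
The Cdk1 window, at chr10:69352913-69353032 on the minus strand, carries 2 TTTGAA and 2 ATTGG matches. Ncapg, at chr5:45669805-45669924 on the plus strand, has 1 TTTGAA in the stretch shown. Cdc25b, at chr2:131186828-131186947 on the plus strand, has 1 ATTGG, and Spc25, at chr2:69206214-69206333 on the minus strand, has 2 CCAAT. Ect2, at chr3:27153879-27153998 on the minus strand, which has 2 windows in the table of which the upper-listed is printed, carries 1 TTTGAA and 2 CCAAT. Among the 3 genes that rose, TTTGAA is in the stretch shown for Ncapg and not in those for Cdc25b and Spc25.

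Mki67, which encodes the proliferation antigen Ki-67 that coats mitotic chromosomes, and Top2a, the topoisomerase that untangles sister chromatids, are the usual RNA markers of dividing cells. Mki67 was at 4827, 4373 and 3854 in vehicle replicates 1 to 3 and 4537, 4434 and 4185 in DAPT replicates 1 to 3. Vehicle replicates 1 and 3 enclose all the DAPT values, and the change had a log2 value of 0.017 (95% interval -0.091 to 0.12, limma adjusted p = 0.876). Top2a was at 3654, 3427 and 3348 in vehicle replicates 1 to 3 and 3731, 3697 and 3562 in DAPT replicates 1 to 3, with the highest vehicle library inside the DAPT range. Its log2 change was 0.076 (95% interval 0.00039 to 0.15), short of the threshold after adjustment (limma adjusted p = 0.164). It was called higher when vehicle replicate 1 was left out (limma adjusted p = 0.0308).

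Among the cyclins, Cdk1 and the phosphatases that activate it, 1 of 7 genes was called, where 18.1% of all tested genes were. Cdc25b encodes the phosphatase that removes the inhibitory phosphates from cyclin-dependent kinases as cells prepare for mitosis. Its normalised counts were 926, 938 and 910.3 in vehicle and 1097, 1072 and 1108 under DAPT. Every DAPT library lay above every vehicle library, and the means of 925 ± 13.9 in vehicle and 1093 ± 18.6 under DAPT differed 1.18-fold (log2 change 0.24, SE 0.0420, limma adjusted p = 0.000173). This was the only member whose call held under all 17 alternative settings, with adjusted p-values between 9.99e-05 and 0.0219. Its relative Cdc25c, on chromosome 18, was much lower per length, with an authors' deposited RPKM of 6.30 in vehicle against 13.1 for Cdc25b, and was at 137 ± 9.03 in vehicle and 141 ± 6.67 under DAPT (limma adjusted p = 0.816).

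Cdk1 itself, the kinase of mitotic entry, was at 968, 998 and 947 in vehicle and 933, 961 and 1012 under DAPT, and the groups overlapped throughout (log2 change -0.0035, 95% interval -0.10 to 0.089, limma adjusted p = 0.973). Its main partner cyclin B1, Ccnb1, was at 752, 747 and 777 in vehicle and 745, 746 and 778 under DAPT, an equally complete overlap (log2 change -0.0049, limma adjusted p = 0.963). Ccnb2, the cyclin B with the highest level per length, was at 548, 507 and 497 in vehicle and 543, 527 and 557 under DAPT, with vehicle replicate 1 inside the DAPT range. Ccna2, the cyclin of S and G2 phase, had means of 1576 ± 111 in vehicle and 1657 ± 55.2 under DAPT, and Ccnf, an F-box protein of the cyclin fold, of 733 ± 26.9 in vehicle and 781 ± 26.7 under DAPT. None of these 5 genes passed, and their log2 changes ran from -0.0049 to 0.091.

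Foxm1, the transcription factor that drives late cell cycle genes, was at 1793, 1692 and 1679.8 in vehicle and 1831, 1653 and 1673 under DAPT, with a log2 change of -0.0031 (95% interval -0.091 to 0.085, limma adjusted p = 0.974). DAPT replicate 1 held the highest and DAPT replicate 2 the lowest value of all 6 libraries. Melk, a kinase abundant in dividing cells, was at 571, 614 and 568 in vehicle and 609, 672 and 621 under DAPT. Vehicle replicate 2 lay inside the DAPT range, and the log2 change of 0.12 did not pass (limma adjusted p = 0.140).

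Kinases of the centrosome and spindle did not pass in any of 4 cases with limma, edgeR or DESeq2, and 0 of them had an unadjusted p under 0.05. Plk1, the polo kinase that acts from mitotic entry to cytokinesis, was at 639.6, 661 and 610.1 in vehicle and 643, 583 and 564 under DAPT, so that DAPT replicate 1 lay among the vehicle values and the other DAPT libraries under them (log2 change -0.10, limma adjusted p = 0.267). Aurka, the Aurora kinase of spindle poles, was at 603 ± 2.04 in vehicle and 604 ± 12.6 under DAPT (log2 change 0.00031, 95% interval -0.10 to 0.10). Its vehicle libraries were within a few counts of each other. DAPT replicate 1 lay below them, DAPT replicate 2 above them and DAPT replicate 3 among them. Plk4, which sets centriole duplication, was at 381 ± 19.8 in vehicle and 393 ± 27.5 under DAPT, and Nek2, which helps to separate centrosomes, at 549.5 ± 1.54 in vehicle and 559.9 ± 42.9 under DAPT.

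The chromosomal passenger complex, in which the kinase Aurkb works with Incenp, survivin (Birc5) and borealin (Cdca8), was not called in any of its 4 subunits by limma, edgeR or DESeq2. Birc5 was at 589.7, 571 and 608 in vehicle and 662, 662 and 598 under DAPT. Its DAPT replicates 1 and 2 lay above all vehicle values and DAPT replicate 3 within them, and the log2 change of 0.12 had an unadjusted p of 0.0366, the only one of the 4 under 0.05 (limma adjusted p = 0.135). Incenp, the scaffold of the complex, was at 1013, 1088 and 999.7 in vehicle and 1089.8, 1059.6 and 1051 under DAPT, with the vehicle replicate 2 value close to the highest DAPT value (log2 change 0.046). Aurkb was at 899.9 ± 46.7 in vehicle and 899 ± 21.8 under DAPT and Cdca8 at 428 ± 27.3 in vehicle and 427 ± 31.2 under DAPT, with log2 changes of -0.00015 and -0.0045.

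None of the 5 spindle checkpoint genes was called by limma, edgeR or DESeq2, and 0 had an unadjusted p under 0.05. Bub1, a kinase that recruits checkpoint proteins to the kinetochore, was at 511, 499.6 and 449 in vehicle and 503, 535 and 544 under DAPT. Its highest values were those of DAPT replicates 2 and 3, and DAPT replicate 1 lay among the vehicle values (log2 change 0.12, 95% interval -0.0050 to 0.24, limma adjusted p = 0.186). Bub3, a partner of Bub1 and the checkpoint gene with the highest level per length, was at 845, 795 and 817 in vehicle and 827, 759 and 805 under DAPT. Bub1b, which encodes BubR1 of the inhibitory checkpoint complex, was at 986 ± 7.49 in vehicle and 1013 ± 32.1 under DAPT and Mad2l1, which encodes Mad2, at 957 ± 21.4 in vehicle and 966 ± 32.4 under DAPT. Ttk, the Mps1 kinase at the top of the pathway, was at 224 ± 5.59 in vehicle and 239 ± 13.9 under DAPT. Log2 changes of the 5 genes ran from -0.040 to 0.12.

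Among 8 centromere and kinetochore genes 1 was called, where 18.1% of all tested genes were. Spc25, a subunit of the Ndc80 complex that binds microtubules, was at 617, 639 and 652 in vehicle and 696, 782 and 712 under DAPT. The DAPT values lay above the vehicle values without overlap, with DAPT replicate 2 the highest, and the means of 636 ± 17.6 in vehicle and 729.8 ± 45.7 under DAPT differed 1.15-fold (log2 change 0.20, SE 0.0522, limma adjusted p = 0.00918). Without DAPT replicate 2 the log2 change was 0.15 and no longer called (limma adjusted p = 0.0964). The other subunits of the same complex were not called. Ndc80 was at 355, 394 and 365 in vehicle and 349.7, 365 and 343 under DAPT, lower in mean under DAPT (log2 change -0.073, limma adjusted p = 0.492). Nuf2 was at 433 ± 27.4 in vehicle and 449.7 ± 11.5 under DAPT and Spc24 at 189 ± 13.9 in vehicle and 205 ± 14.5 under DAPT, with log2 changes of 0.056 and 0.12. The complex thus held 1 called and 3 uncalled subunits, and the difference between subunits was not tested.

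Cenpa, the histone variant that marks centromeres, was at 459, 561 and 483 in vehicle and 473, 442 and 439.8 under DAPT. Vehicle replicate 2 stood highest and vehicle replicate 1 within the DAPT range (log2 change -0.14, 95% interval -0.28 to -0.0082, limma adjusted p = 0.140). It was called lower when vehicle replicate 1 was left out (limma adjusted p = 0.0361). Cenpe, a kinesin of the kinetochore, was at 876 ± 61.3 in vehicle and 900.4 ± 56.6 under DAPT and Cenpf, a large protein of the outer kinetochore, at 943 ± 59.0 in vehicle and 930.5 ± 25.8 under DAPT. Cenpk, of the inner kinetochore, was the lowest member, at 76.6 ± 7.34 in vehicle and 83.5 ± 11.3 under DAPT, and its interval of -0.16 to 0.40 on the log2 scale was the widest.

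Genes of cohesion release and anaphase onset had log2 changes between -0.031 and 0.029, and 0 of the 5 were called by limma, edgeR or DESeq2, or had an unadjusted p under 0.05. Cdc20, the activator of the anaphase-promoting complex, was at 957, 937 and 925 in vehicle and 976, 942 and 913 under DAPT. Ube2c, the ubiquitin-conjugating enzyme that serves that complex, was at 697, 667 and 669 in vehicle and 677, 639 and 675 under DAPT. Values of both genes overlapped between the groups. Pttg1, which encodes securin, was at 328 ± 20.5 in vehicle and 331 ± 7.19 under DAPT, and Espl1, which encodes the separase that securin restrains, at 614 ± 20.9 in vehicle and 609 ± 32.4 under DAPT. Sgol1, shugoshin, which protects centromeric cohesion, was at 421 ± 45.0 in vehicle and 427 ± 2.06 under DAPT, with the vehicle libraries spread more widely than the DAPT libraries.

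Of 6 spindle assembly and cytokinesis genes, 1 was called higher and 2 lower, where 9.22% and 8.91% of all tested genes were. Nusap1, a microtubule-binding protein of the spindle, was at 932, 922 and 881 in vehicle and 1027, 1039.6 and 987 under DAPT. All DAPT values lay above all vehicle values, 1.12-fold in the mean (log2 change 0.16, SE 0.0440, limma adjusted p = 0.0128). Ect2, the exchange factor that activates RhoA at the division plane, was at 632, 599 and 603 in vehicle and 534, 564 and 533 under DAPT. Its DAPT values lay under the vehicle values without overlap, 1.12-fold lower in the mean (log2 change -0.17, SE 0.0519, limma adjusted p = 0.0244). Anln, anillin, which scaffolds the contractile ring and binds actin, was at 3830.0, 3542 and 3559.6 in vehicle and 3315, 3455 and 3298 under DAPT. It had the highest level per length of the 48 genes, with an authors' deposited RPKM of 59.9 in vehicle, and was 1.09-fold lower under DAPT (log2 change -0.12, SE 0.0367, limma adjusted p = 0.0263).

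The other 3 genes of this group did not pass. Tpx2, which activates Aurora A on the spindle, was at 1841 ± 26.0 in vehicle and 1899.9 ± 40.1 under DAPT, Prc1, which bundles the central spindle, at 1524 ± 74.1 in vehicle and 1566 ± 24.1 under DAPT, and Dlgap5, which stabilises kinetochore fibres, at 557 ± 13.3 in vehicle and 579 ± 11.8 under DAPT. Their log2 changes lay between 0.040 and 0.056. Leaving out 1 library could end the called changes: Nusap1 was no longer called without DAPT replicate 1 or 2 (limma adjusted p = 0.0505 and 0.0733). Ect2 and Anln were no longer called without vehicle replicate 1, DAPT replicate 1 or DAPT replicate 3, with limma adjusted p-values between 0.0823 and 0.0949 for Ect2 and between 0.100 and 0.134 for Anln. EdgeR and DESeq2 on 5 libraries called neither of the pair, and Anln was also short of the threshold when each library was centred on its median (limma adjusted p = 0.0506).

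Condensin had 3 of 5 subunits higher and 0 lower (limma unadjusted p under 0.05 for 4 higher and 0 lower), with a median log2 change of 0.12. Of all tested genes 9.22% were called higher, and 30.0% had an unadjusted limma p under 0.05 in either direction. The departure of so small a group from these shares was not tested. Smc2 and Smc4 are the ATPase arms that condensin I and condensin II share. Smc2 was at 2116, 2169 and 2207 in vehicle and 2288, 2401 and 2350.5 under DAPT (log2 change 0.12, SE 0.0361, limma adjusted p = 0.0255). Smc4 was at 1893, 2067 and 1906 in vehicle and 2115, 2156 and 2105 under DAPT (log2 change 0.12, SE 0.0390, limma adjusted p = 0.0316). In both genes all 3 DAPT libraries lay above all 3 vehicle libraries, and for Smc4 vehicle replicate 2 was the nearest to the DAPT values.

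Ncapg, a subunit of condensin I, was at 838, 773 and 793 in vehicle and 845, 912 and 944 under DAPT, 1.12-fold higher under DAPT (log2 change 0.17, SE 0.0496, limma adjusted p = 0.0199). The highest vehicle and the lowest DAPT value were nearly level. Ncaph, the kleisin that closes the condensin I ring, was at 1317, 1301 and 1267 in vehicle and 1364, 1393 and 1408 under DAPT, without overlap but not past the threshold (log2 change 0.10, limma adjusted p = 0.0800). Ncapd2, the most abundant subunit per length, was at 2370.2, 2260.4 and 2145 in vehicle and 2330.3, 2306 and 2216 under DAPT, with full overlap (log2 change 0.017, limma adjusted p = 0.823). Smc4 kept its call without vehicle replicate 2 and lost it without any other library. Smc2 kept it without vehicle replicate 3 or DAPT replicate 1 and lost it without any other, and Ncapg lost it without vehicle replicate 2, DAPT replicate 2 or DAPT replicate 3. EdgeR and DESeq2 on the reads of 5 libraries called 0 of the 5 condensin genes, with an unadjusted p under 0.05 for 3 and 2 of them.

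**Figure D3:**
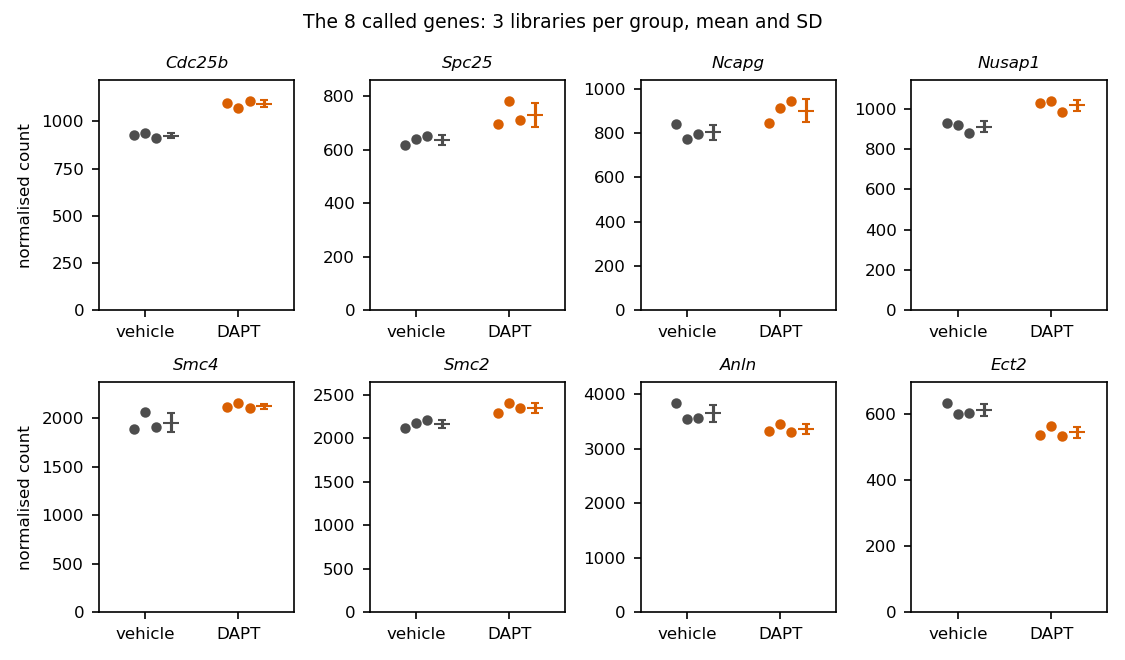
Normalised counts (y axis, from 0) of the 8 called genes in the 3 vehicle and 3 DAPT libraries, with the mean and SD beside the points. In each panel the groups do not overlap, and the largest difference, that of Cdc25b, is 1.18-fold.

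Other genes of the cell cycle were read from lists to place the members. Of 123 such genes, all tested, 15 were higher and 5 lower with limma, which is 16.3% called against 18.1% of all tested genes. The lists below stand beside 9.22% of all tested genes called higher, 8.91% lower and 30.0% at an unadjusted limma p under 0.05. EdgeR called 8 higher and 3 lower and DESeq2 2 higher and 0 lower (unadjusted: 13 and 4). The median log2 change of the 123 genes was 0.049. Leaving out 1 library moved the limma counts to 7 higher and 2 lower without vehicle replicate 2 and to 7 higher and 4 lower without DAPT replicate 2. Without DAPT replicate 1 they were 9 higher and 4 lower, and without DAPT replicate 3 they were 9 higher and 3 lower. Over all tested genes the calls fell as well in these settings, to between 929 and 1069 higher and between 939 and 1079 lower. Without vehicle replicate 1, 19 of the 123 genes were higher and 5 lower, and over all tested genes 1253 and 1123. Without vehicle replicate 3, 13 of the 123 were higher and 6 lower, and over all tested genes 1401 and 1317. Condensin II, the second condensin complex, had 1 of 3 subunits of its own higher: Ncapg2 was at 1548 ± 39.3 in vehicle and 1724 ± 27.2 under DAPT (limma adjusted p = 0.00464), and this call held without any 1 library. Ncaph2, which was named after its value was seen, was at 2789.7 ± 80.1 in vehicle and 2726 ± 21.9 under DAPT. In cohesin and its regulators 3 of 11 were higher and 0 lower (unadjusted 4 and 0; 0 called by edgeR and DESeq2), namely Rad21, the kleisin of cohesin, from 3594 ± 124 to 3879.7 ± 3.53, Stag2, another core subunit, from 1531 ± 43.5 to 1667 ± 8.76, and the acetyltransferase Esco2 from 393 ± 22.6 to 446 ± 17.5. Each of these 3 calls was lost without vehicle replicate 2 and without any 1 DAPT library, and those of Rad21 and Esco2 also without vehicle replicate 3.

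Among 27 other centromere and kinetochore genes 1 was higher and 1 lower. Cenph, of the inner kinetochore, rose from 169 ± 3.69 to 201 ± 7.28, a call that held only without vehicle replicate 3. Hjurp, the chaperone that loads Cenpa, fell from 5669 ± 182 to 5178 ± 44.4 (limma adjusted p = 0.00663), a call lost without vehicle replicate 2. Of 18 other spindle and cytokinesis genes 2 were higher and 1 lower. Kif23, the kinesin of the central spindle, rose from 604 ± 25.8 to 680.0 ± 22.9 and Kif20b from 917 ± 50.8 to 1024 ± 3.13, while Kif20a, a kinesin needed for cytokinesis, fell from 2172 ± 39.8 to 2004 ± 51.3. These calls were lost without 4, 4 and 3 of the 6 libraries in turn, DAPT replicate 2 among them for each. The partner of Ect2 at the central spindle, Racgap1, was at 1586 ± 43.4 in vehicle and 1686 ± 63.3 under DAPT (limma adjusted p = 0.142), and the partner kinase of anillin at the contractile ring, Cit, at 516 ± 29.6 in vehicle and 519.8 ± 19.3 under DAPT. Racgap1 and Cit were named after their values were seen. Among 14 genes of the anaphase-promoting complex and its inhibitors Cdc16 fell from 1148 ± 31.2 to 1012 ± 25.0, a call that held without any 1 library, and 0 were called higher by limma, edgeR or DESeq2 (limma unadjusted: 2).

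Of 14 regulators of mitotic entry 1 was lower, Bora, a cofactor by which Aurora A activates Plk1, from 216 ± 16.5 to 180.3 ± 14.9, and 0 were higher by limma, edgeR or DESeq2 (limma unadjusted: 1). The call of Bora was lost without vehicle replicate 2, DAPT replicate 1 or DAPT replicate 3. Of 10 DREAM and MuvB genes 3 were higher and 0 lower with limma (unadjusted: 4 and 0), 2 and 0 with edgeR and 0 and 0 with DESeq2 (unadjusted: 2 and 0). They were Rbl1 and Rbl2, which encode the RB relatives p107 and p130, from 1183 ± 76.2 to 1337 ± 29.0 and from 955 ± 31.4 to 1076 ± 15.3, and Lin54, the subunit that binds the CHR, from 836 ± 5.96 to 921 ± 24.9. The calls of Rbl1 and Rbl2 held without any 1 library, and that of Lin54 was lost without vehicle replicate 2, DAPT replicate 2 or DAPT replicate 3. Among 19 genes of G1/S and replication 5 were higher with limma, 4 with edgeR and 2 with DESeq2, and 0 were lower with any of them (limma unadjusted: 10 higher and 3 lower). Cyclin D1 (Ccnd1) rose from 2764 ± 329 to 3729 ± 144 (log2 change 0.44, limma adjusted p = 1.41e-06), and Ccne2, cyclin E2, Pcna, the replication clamp, and Rrm2, of ribonucleotide reductase, rose by log2 changes of 0.28, 0.13 and 0.17. Among these 4 genes a call was lost without 1 library in a single case, Pcna without DAPT replicate 2. The remaining called gene of the list, Cdc6 (log2 change 0.20), lost its call without vehicle replicate 2 or DAPT replicate 1. The change of Ccnd1 was larger than that of any of the 48 mitotic genes. Of 7 inhibitors of cyclin-dependent kinases Cdkn2a, which encodes p16 and p19ARF, fell from 4171 ± 150.2 to 3805 ± 55.3, a call lost without vehicle replicate 2, and 0 were higher (limma unadjusted: 0; edgeR and DESeq2: 0).

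**Figure D4:**
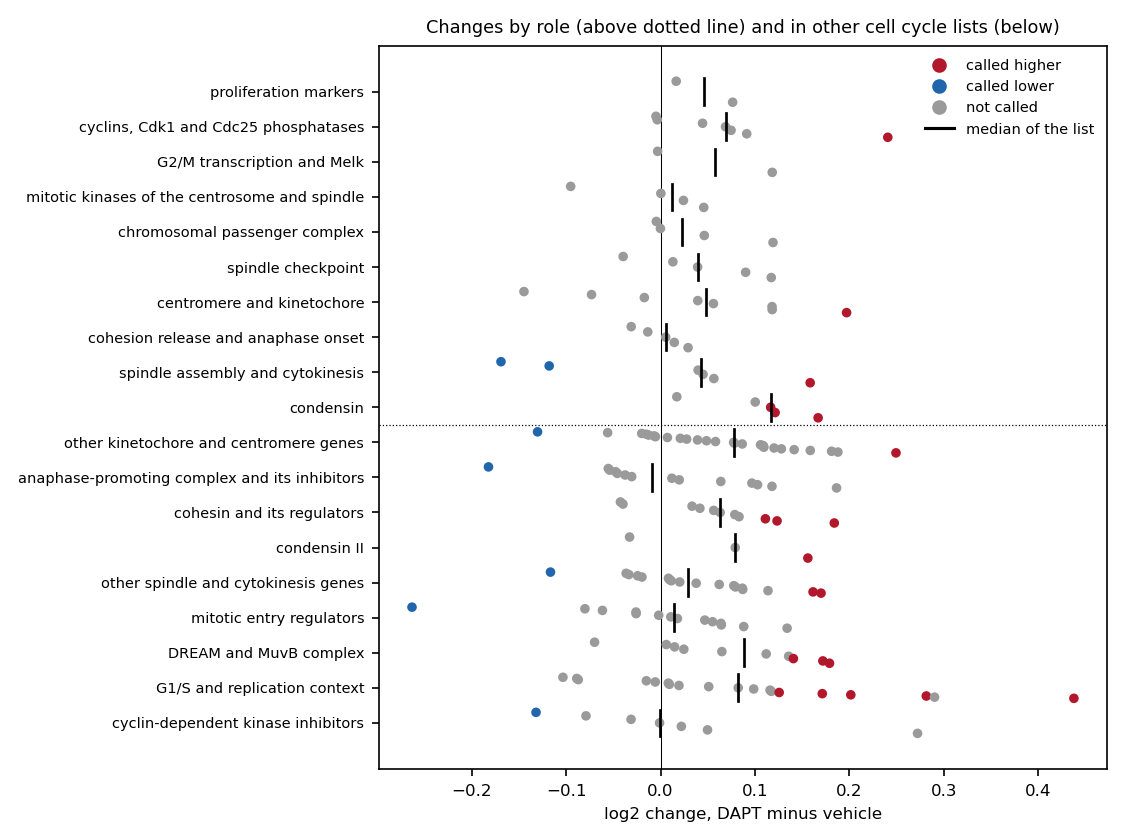
Log2 change (x axis, DAPT minus vehicle) of each gene in the role groups of the 48 members (above the dotted line) and in the other cell cycle lists (below it), with black bars at the median of a list. Condensin has the highest median among the role groups, 0.12, and Ccnd1, at 0.44, is the gene farthest to the right.

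The members also varied between libraries of a group. In each library the deviation of a member from its mean over all 6 libraries was taken on the log2 scale. The median deviation over the 48 genes was 0.0057, -0.0077 and -0.052 in vehicle replicates 1 to 3 and 0.030, 0.024 and 0.0022 in DAPT replicates 1 to 3. Vehicle replicate 3 stood lowest: 20 of the 48 genes, Mki67, Ccna2 and Cenpf among them, had their lowest value there and 0 had their highest, while its median over all tested genes was 0.00150. Together the 48 genes took 0.388, 0.382 and 0.369 % of the normalised counts in vehicle and 0.395, 0.395 and 0.385 % under DAPT, so the groups overlapped in this share. Without vehicle replicate 3 the median log2 change of the members was 0.021 in place of 0.040, and 5 were called higher and 2 lower.

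**Figure D5:**
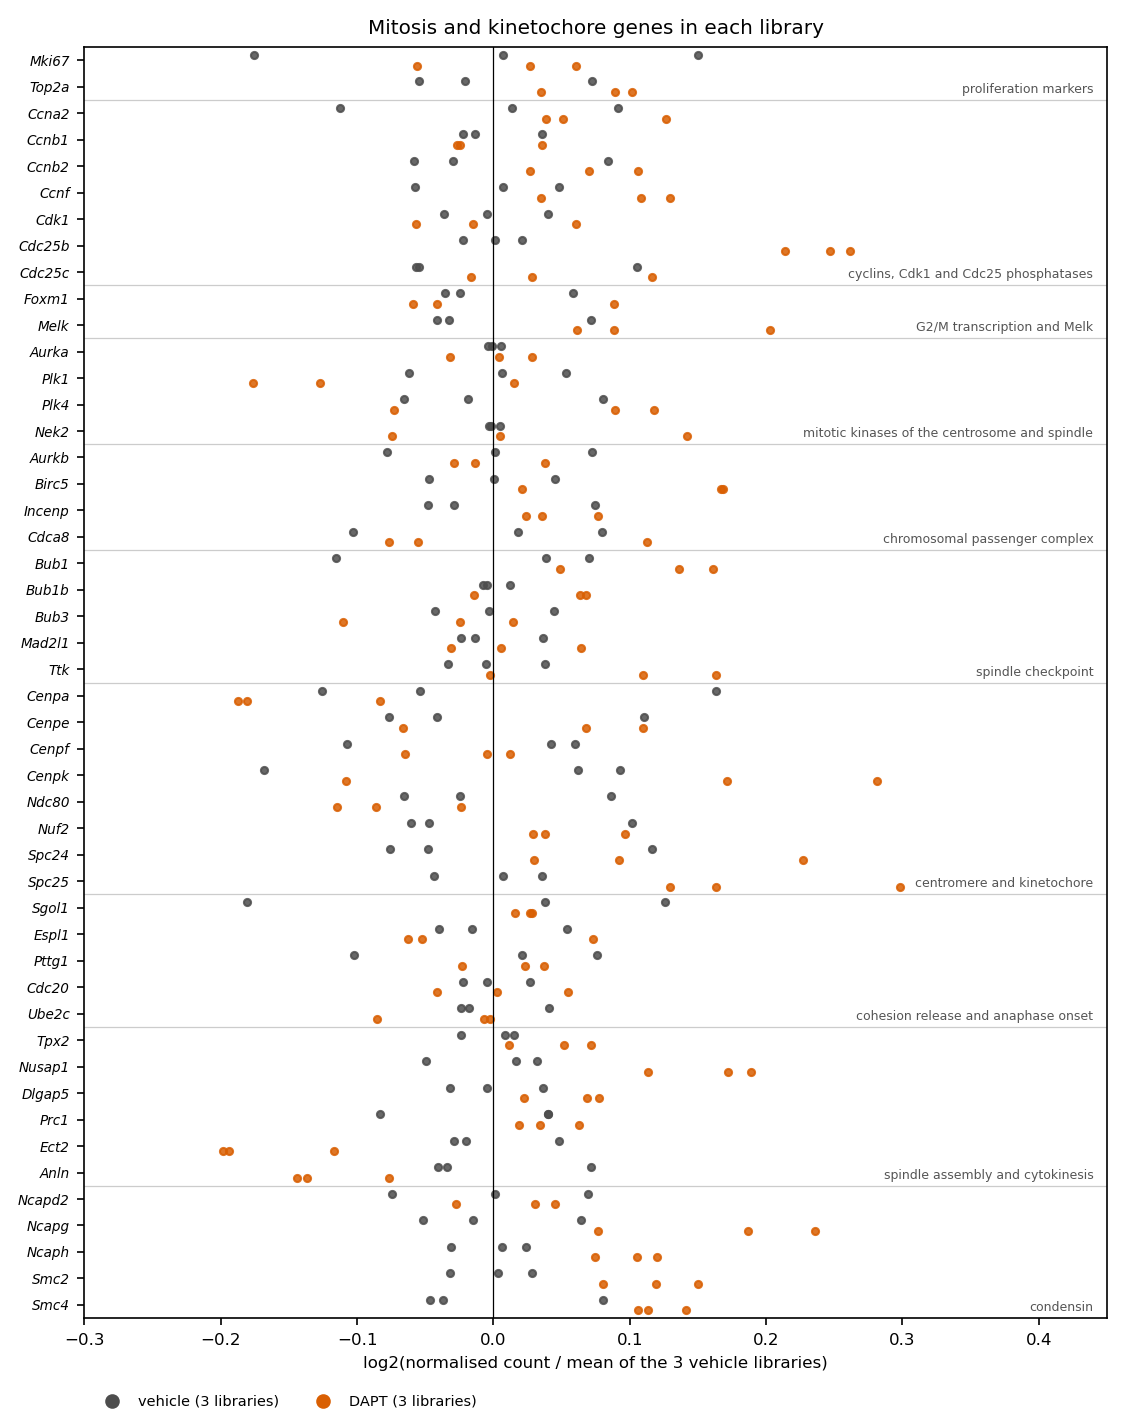
Each library's normalised count of each of the 48 genes, as log2 of its ratio to the mean of the 3 vehicle libraries (x axis), with genes grouped by role (y axis). Vehicle points of Mki67 and Ccna2 spread more widely than their DAPT points, and the DAPT points of Cdc25b stand clear of the vehicle points to the right.

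The 48 genes lie on 16 chromosomes. Levels differed far more between members than between groups. On the authors' deposited RPKM, which sets a level per length and is 1 value per group, Anln was highest at 59.9 in vehicle and 55.2 under DAPT, followed in both groups by Ncapd2 (43.4 and 43.8), Mki67 (38.5 and 38.8), Bub3 (35.5 and 34.6) and Cdc20 (33.8 and 33.9). Cenpk was lowest at 3.39 and 3.69, next to Plk4 at 4.04 and 4.17. Subunits of a complex need not be level: within the Ndc80 complex vehicle RPKM ran from 10.8 for Spc24 to 15.0 for Ndc80, and within condensin from 6.63 for Ncapg to 43.4 for Ncapd2.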

How the data were processed

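RNA was sequenced from 6 libraries, 3 vehicle and 3 DAPT, grouped by the sample labels, the letters C and I in the column names being read as control and inhibitor. The submitters' processing notes name TopHat2 2.0.4, HTSeq 0.5.4p3, DESeq 1.16.0 and mouse build mm9, without roles. The annotation, filters and strand setting are not given in the sources used here, so reads of overlapping and antisense genes cannot be told apart. The table deposited by the authors holds a signal per gene and library, the read count divided by a size factor. It also holds, per the file headers, an RPKM per group, a log2 fold change and a p-value with its adjusted value. In each library 100% of the values came out as whole reads, to within 0.01, once divided by the step of 1 read. The size factor of DAPT replicate 3, at 1.01, was the nearest to 1. Although the values of that library also came out whole, it was left out of the count tests edgeR 4.0.16 and DESeq2 1.42.0. These tests ran on 5 libraries.

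Genes were tested with limma (version 3.58.1, R 4.3.3), two-sided and with the variance trend on level, on log2(normalised count + 1), for genes at 10 or more in at least 3 libraries, with Benjamini-Hochberg adjustment over 14906 genes at 0.05. It was also run on simulated counts whose spread was set and not taken from these libraries. That run does not show how often changes as small as those here are called. Fold changes on this scale are slightly understated for low genes. The members, gene lists and tests were chosen with earlier results of these data known. Values per library are given for every called member and, in each role group, for the member with the largest change and the one with the highest mean RPKM, with a few textbook genes added. From the other lists up to 4 called genes were named, those at the extremes of the change. In the list of G1/S and replication Cdc6 was named as well. For 4 genes of the cell cycle lists and 1 leukocyte marker the name in the table differed and the gene ID was used. A gene with several RefSeq promoter windows counted if any held a motif. Same-numbered libraries of the 2 groups did not deviate together (residual correlations 0.0267, -0.0175 and 0.0099), so numbers were not taken as pairs. Alternatives were another pseudocount (0.5 or 5), no filter or a filter of 50, 3 other scalings, robust empirical Bayes, a replicate block, the count tests, and leaving out each library.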

Additional observations from a re-analysis of the deposited data

How the results depend on the processing

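All 17 alternatives kept the direction of the 8 called members. The replicate block left 6 members higher and 2 lower, with 1396 genes higher and 1336 lower over the table. Median centring gave 7 members higher and 1 lower, and 1581 genes higher and 1187 lower, against 1375 and 1328 in the main test. EdgeR on 5 libraries called 3 members higher and 0 lower (unadjusted 10 and 2), and 944 genes higher and 995 lower. DESeq2 on the same libraries called 1 higher and 0 lower (unadjusted 5 and 1), and 445 genes higher and 537 lower, with no adjusted p for 1435 genes. These tests had 1 library fewer than the main limma test. Limma on the same 5 libraries, without DAPT replicate 3, called 3 members higher and 0 lower, and 965 genes higher and 991 lower. These counts lie close to those of edgeR and above those of DESeq2, and the cause of the lower counts was not tested. Leaving out 1 library gave 1 to 5 members higher and 0 to 2 lower, and 929 to 1401 genes higher and 939 to 1317 lower. The median log2 change of the members stayed between 0.021 and 0.056. Of the 8 called members, Cdc25b kept its call throughout, Spc25 lost it under 2 alternatives, Nusap1 under 3, Ect2 and Ncapg under 5, Anln and Smc2 under 6 and Smc4 under 8. Of the 40 others, 3 were called under an alternative (Ncaph, Top2a and Cenpa), and 16 changed sign under at least 1. With 3 libraries per group, the median 95% interval of a member was 0.10 on the log2 scale to either side, which limits how small a change could be called.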
